A study of Homo sapiens with 12 samples.

Results

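Cathepsins and legumain are the proteases that carry out much of the protein breakdown inside lysosomes. The 10 genes described here, CTSA, CTSB, CTSC, CTSD, CTSF, CTSH, CTSL, CTSS, CTSZ and LGMN, were taken by name from tables that list 54553 genes per library. The rule that chooses them reads names only, though it was written with earlier results of these data known. RNA was sequenced from Caco-2 cells, a wild-type human colorectal adenocarcinoma line that takes on features of enterocytes in culture, after 48 h in rich or depleted medium with vehicle or bafilomycin A1.

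The 12 libraries fell into 4 groups of 3. The rich medium was EMEM with 1 g/L glucose, 2 mM glutamine and 20% serum. The depleted medium was a DMEM base with 0.1 g/L glucose, 0.2 mM glutamine and 1% serum, so base medium, serum, glucose and glutamine changed together and their shares in a difference between media cannot be told apart. In each medium, sub-confluent cells received vehicle or 100 nM bafilomycin A1. All 4 groups were wild type and came from a single cell line.

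Lysosomal proteases are made as inactive precursors, carried to the lysosome largely on mannose 6-phosphate receptors, and matured by cleavage at acidic pH. Bafilomycin A1 blocks the vacuolar proton pump that acidifies lysosomes. CTSB, CTSC, CTSF, CTSH, CTSL, CTSS and CTSZ encode papain-type cysteine proteases, CTSD an aspartic protease, CTSA a serine carboxypeptidase that also protects the sialidase NEU1 and the galactosidase GLB1, and LGMN the asparaginyl endopeptidase legumain, which can cleave other cathepsins to their mature chains. Transcription of many lysosomal genes is driven by TFEB and its relatives through E-box motifs, and nutrient shortage is a known trigger of their move to the nucleus.

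Between 12969811 and 51649207 reads were assigned to genes per library. The shallowest was replicate 1 of rich medium with vehicle, and the other 11 libraries held at least 33859975 reads. Over log2 CPM of all genes tested, that library had the lowest mean correlation with its own group (r = 0.946), and replicate 3 of rich medium with bafilomycin A1 was as close to the depleted vehicle libraries (0.980) as to its own group (0.979). These are called the 2 libraries that stood apart. Replicates 2 and 3 of rich medium with vehicle were also closer to rich medium with bafilomycin A1 (0.968 and 0.971) than to their own group (0.959 and 0.960). The difference between gene length and effective length, which grows with fragment length, had medians of 172.69 to 195.62 bases in depleted medium with bafilomycin A1 and 194.08 to 276.65 bases in the rest. With effective lengths added to the fit, the calls of the members were the same in all 5 comparisons. Such offsets adjust for length alone. The smallest differences were in depleted medium with bafilomycin A1, so their part in that group's results cannot be told apart from its treatment. Of 12 intestinal epithelial markers, EPCAM ran from 208 to 790 TPM (a level per transcript length) and VIL1 from 21.2 to 76.9 TPM, while CDX1 was at 0 in 11 libraries and KRT20 reached no more than 0.393 TPM. Some markers of other cells were near 0. The leukocyte gene PTPRC was at or below 0.08 TPM, the fibroblast gene DCN at or below 0.352 TPM and the endothelial gene KDR at 0 in 11 libraries. Other genes of those lists were present, above all PDGFRA at 6.79 to 78.3 TPM, CD14 at 1.93 to 18.7 TPM, COL1A1 at 3.32 to 9.08 TPM and CSF1R at 0.861 to 8.73 TPM. The leukocyte gene LYZ ran from 0.942 to 7.21 TPM and the endothelial gene PECAM1 from 0.322 to 4.99 TPM.

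Most of the protease transcripts came from a few genes, and the leading gene changed with the condition. Levels between genes were compared on the TPM scale. In rich medium with vehicle CTSC had the highest mean, 251 ± 76.7 TPM (SD, n = 3), followed by CTSA (190.1 ± 106), CTSD (180.2 ± 97.7), CTSB (120.1 ± 55.05), CTSZ (109 ± 50.5), LGMN (90.8 ± 39.2) and CTSH (69.0 ± 25.1). The ranges of neighbours in this order overlapped over the 3 libraries, which also differed from each other in level. Within each of the 3 libraries CTSC was above CTSA. It held 26.3%, 21.3% and 28.4% of the members' summed TPM, against 17.95%, 20.1% and 14.9% for CTSA. CTSL followed at 22.0 ± 8.52 TPM, below CTSH in every library, and CTSS at 0.353 ± 0.200 TPM. CTSF was listed at 0 in every group.

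In the other 3 groups CTSD led the order. Its mean was 220.5 ± 45.8 TPM in rich medium with bafilomycin A1, 212 ± 45.7 TPM in depleted medium with vehicle and 239.9 ± 68.4 TPM in depleted medium with bafilomycin A1. CTSA was next in all 3, and its range was separate from that of CTSD only in depleted medium with vehicle. Within each library of these 3 groups, however, CTSD was above CTSA. In depleted medium with bafilomycin A1, CTSD held 32.9%, 34.3% and 34.6% of the members' summed TPM, against 28.3%, 28.1% and 25.1% for CTSA. CTSC took the fourth place in rich medium with bafilomycin A1 (98.2 ± 25.4 TPM) and in depleted medium with vehicle (62.2 ± 6.27 TPM), and the 7th place in depleted medium with bafilomycin A1 (39.3 ± 8.93 TPM), where LGMN and CTSZ stood beside it with overlapping ranges.

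As a share of the summed TPM of the members, CTSC made up 21.3% to 28.4% in rich medium with vehicle. That share was 11.5% to 12.9% in rich medium with bafilomycin A1, 7.91% to 10.4% in depleted medium with vehicle and 4.81% to 6.38% in depleted medium with bafilomycin A1, with no overlap between any of the groups. CTSD went the other way, from 14.9% to 19.4% in rich medium with vehicle to 25.9% to 28.1%, 28.1% to 32.8% and 32.9% to 34.6% in the same order of groups. CTSB held 11.1% to 13.6% in the first 3 groups and 7.60% to 8.21% in depleted medium with bafilomycin A1. Shares add up to a fixed sum, so a lower share of CTSC raises the others. The summed TPM itself overlapped between all groups, with means of 1032 ± 451, 809 ± 164, 702 ± 101 and 707 ± 201.

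**Figure D1:**
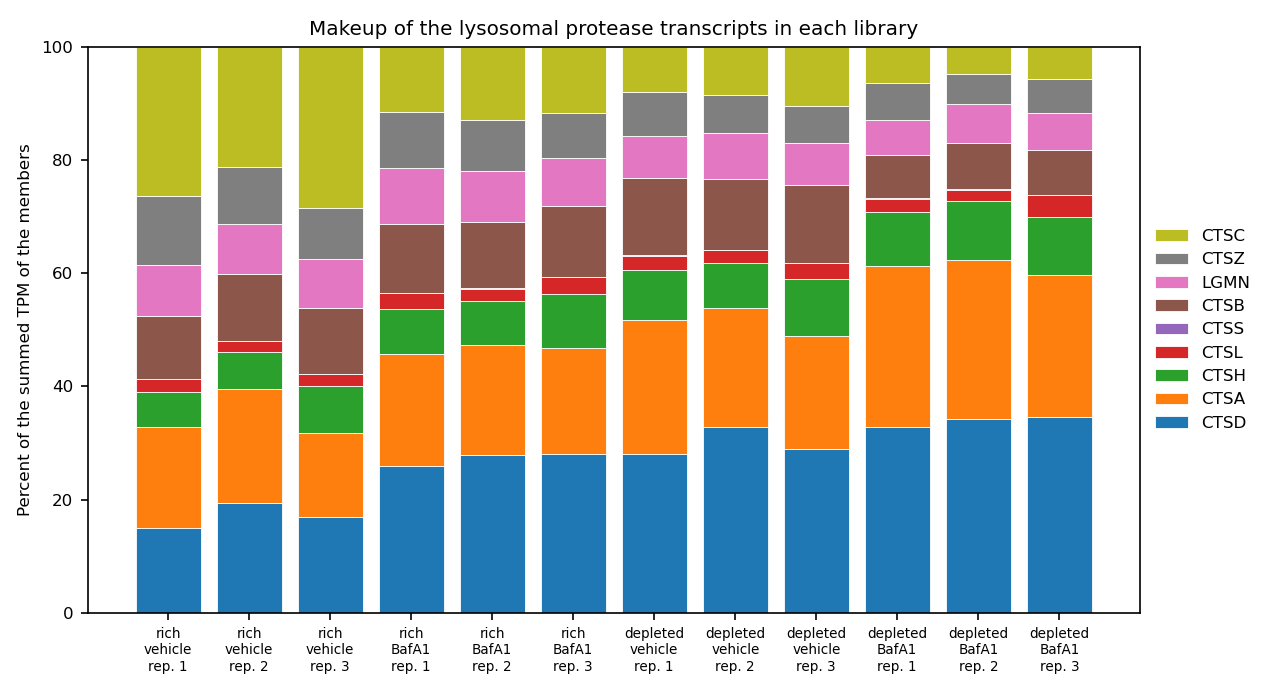
Each bar is a library and its height is divided by the percent of the members' summed TPM that each gene contributed, grouped by medium and treatment (BafA1, bafilomycin A1). The CTSC segment at the top is widest in rich medium with vehicle (21.3% to 28.4%) and narrowest in depleted medium with bafilomycin A1 (4.81% to 6.38%), while the CTSD segment at the bottom is widest there (32.9% to 34.6%).

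For changes of a gene across groups, CPM, a share of each library's reads scaled by TMM factors, was used. Whether groups overlap is given as a description, since the share of all genes without overlap was not counted. Among the exopeptidases, CTSC encodes dipeptidyl peptidase I, which trims dipeptides from protein ends and activates serine proteases of immune cells. In rich medium CTSC was at 279.7, 359.5 and 343 CPM in the vehicle libraries and at 139.6, 184 and 128 CPM with bafilomycin A1. In depleted medium it was at 83.4, 123 and 106 CPM with vehicle and at 56.6, 52.6 and 49.4 CPM with bafilomycin A1. The 4 groups formed 4 steps that did not overlap, from 328 ± 42.2 CPM in the first to 52.8 ± 3.59 CPM in the last.

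CTSB encodes a protease that acts both inside chains and on their carboxyl ends. Its level in rich medium was 238, 415 and 295 CPM with vehicle and 304, 350.3 and 283 CPM with bafilomycin A1. In depleted medium it was 290.5, 364 and 288 CPM with vehicle and 138, 179 and 135 CPM with bafilomycin A1. The first 3 groups overlapped, with means of 316 ± 90.2, 312 ± 34.4 and 314 ± 42.8 CPM, and all 3 libraries of the last group (150.6 ± 24.5 CPM) lay below the 9 others.

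CTSZ encodes a carboxypeptidase that removes single residues. In rich medium it was at 90.9, 142 and 89.7 CPM with vehicle and at 97.7, 107 and 71.8 CPM with bafilomycin A1, which overlapped. In depleted medium it was at 65.8, 78.2 and 54.8 CPM with vehicle and at 45.9, 45.6 and 41.5 CPM with bafilomycin A1, and the last 3 libraries were the lowest of all. CTSH, which encodes an aminopeptidase, overlapped between all groups, from 49.3 CPM in the shallowest library to 95.4 CPM in replicate 2 of rich medium with bafilomycin A1.

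Among the endopeptidases, LGMN was at 90.5, 151 and 111 CPM in rich medium with vehicle and at 121, 135 and 95.5 CPM with bafilomycin A1. In depleted medium LGMN was at 79.2, 118 and 79.2 CPM with vehicle and at 57.0, 76.8 and 57.2 CPM with bafilomycin A1. The last group lay below all others without overlap, and the other 3 overlapped each other. CTSL, a broad endopeptidase, ranged from 16.5 to 25.9 CPM over the 12 libraries. CTSS, an endopeptidase best known from antigen-presenting cells, ranged from 11 to 94 reads per library. CTSF had 0 reads in all 12 libraries, and a count of 0 allows up to 3 reads, or 0.0581 to 0.231 CPM depending on the library. That limit covers counting error only, and an estimated count of exactly 0 may also be a failed estimate.

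CTSD, the main lysosomal aspartic protease, was at 156, 365 and 234 CPM in rich medium with vehicle, the lowest group mean (252 ± 105). It was at 348, 456 and 351 CPM in rich medium with bafilomycin A1, at 323, 519.8 and 337 CPM in depleted medium with vehicle and at 319.7, 404 and 333 CPM in depleted medium with bafilomycin A1. Replicates 1 and 3 of rich medium with vehicle lay below all 9 libraries of the other groups, and replicate 2 lay among them. CTSA ranged from 176 to 333 CPM, both in rich medium with vehicle, and the other 3 groups lay inside that range. On the opposite strand CTSA overlaps PLTP, which held 384 to 2454 reads, and NEURL2, which held 9 to 997 reads, against 2370 to 13739 reads for CTSA. Without a stated strand setting, reads of overlapping genes cannot be told apart. In GENCODE, CTSD and CTSB also overlap gene models on their own strand, AC068580.4 (protein-coding) and AC025857.2 (sense intronic), which no strand setting would separate.

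**Figure D2:**
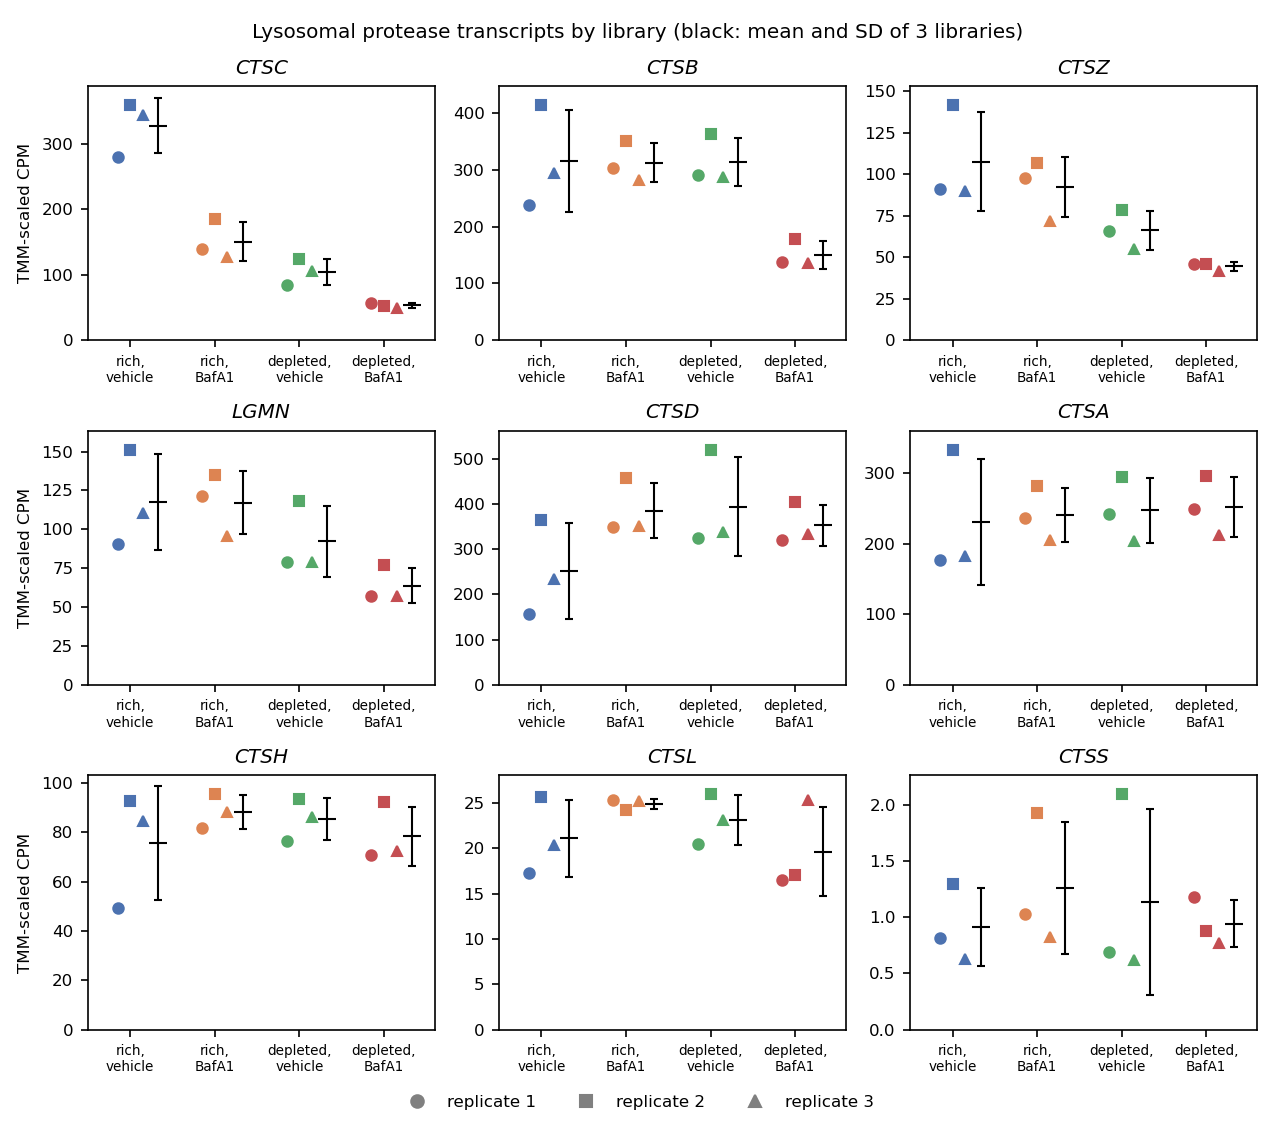
TMM-scaled CPM of the 9 detected genes (vertical axes, each from 0) in the 12 libraries by group, with circles, squares and triangles for replicates 1, 2 and 3 and black marks for the mean and SD of 3 libraries. CTSC falls in 4 separate steps from 328 to 52.8 CPM, the depleted-medium bafilomycin A1 libraries are the lowest for CTSB, CTSZ and LGMN, and the groups overlap for CTSA, CTSH, CTSL and CTSS.

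A test of any difference between the 4 group means, fitted across the 18047 genes that passed the filter on low counts, called 4 of the 9 members tested, all but CTSF having passed that filter. They were CTSC (edgeR quasi-likelihood test, adjusted p = 1.38e-06), CTSZ (0.000688), CTSB (0.00172) and LGMN (0.0122). Of all genes tested, 43.4% were called in the same way, so the members' count is near the background. CTSD had an adjusted p of 0.178 in this test, and CTSA, CTSH, CTSL and CTSS had values between 0.442 and 0.963.

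The sequence upstream of the start is shown for CTSC and CTSZ, a pair called lower in depleted medium, and for CTSD and CTSA. The latter pair was not called in any comparison of the main edgeR fit, though CTSD was called in some other fits. The sequences are the 250 bases before the RefSeq gene start on GRCh38.p14, written in the direction of the gene, with the E-box CACGTG in capitals. CTSC is read from chr11:88337737-88337986, CTSZ from chr20:59007255-59007504 and CTSD from chr11:1763928-1764177, all on the minus strand, and CTSA from chr20:45891085-45891334 on the plus strand.
CTSC: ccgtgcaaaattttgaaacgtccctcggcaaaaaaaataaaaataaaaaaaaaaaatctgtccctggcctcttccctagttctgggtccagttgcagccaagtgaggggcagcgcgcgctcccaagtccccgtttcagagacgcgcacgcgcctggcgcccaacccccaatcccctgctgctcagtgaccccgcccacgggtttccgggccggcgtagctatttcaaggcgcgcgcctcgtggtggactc
CTSZ: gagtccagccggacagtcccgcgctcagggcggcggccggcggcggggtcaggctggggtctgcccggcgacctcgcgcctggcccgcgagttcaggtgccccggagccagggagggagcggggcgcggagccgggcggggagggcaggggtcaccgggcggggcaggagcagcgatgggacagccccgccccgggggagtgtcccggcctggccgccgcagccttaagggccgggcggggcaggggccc
CTSD: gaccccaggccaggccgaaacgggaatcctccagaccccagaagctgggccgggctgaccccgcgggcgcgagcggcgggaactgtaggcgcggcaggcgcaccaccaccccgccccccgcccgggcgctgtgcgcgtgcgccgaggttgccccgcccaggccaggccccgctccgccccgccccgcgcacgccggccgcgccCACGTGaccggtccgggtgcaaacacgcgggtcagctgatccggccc
CTSA: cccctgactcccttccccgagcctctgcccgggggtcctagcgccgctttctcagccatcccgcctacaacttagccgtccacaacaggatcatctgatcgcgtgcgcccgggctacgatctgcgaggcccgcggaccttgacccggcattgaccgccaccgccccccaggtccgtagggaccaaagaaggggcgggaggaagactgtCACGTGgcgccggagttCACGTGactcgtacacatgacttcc

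The CTSA window holds the E-box at -42 to -37 and again at -25 to -20, counted back from the gene start, and the CTSD window holds it at -47 to -42. Both also match the longer TCACGTG, which overlaps the E-box. CTSC and CTSZ have no CACGTG in their 250 bases. Nor do CTSH and CTSL, which were not called in any comparison either, so the E-box did not separate called from uncalled members, and the pair shown was chosen for holding it. RefSeq windows were matched for 7 members, and CTSF, which had no reads, is the third of them with an E-box, so 3 of 7 windows held CACGTG on either strand against 6.31% of 34788 promoter windows of the same length. The GC box GGGCGG, searched on both strands, was in 6 of 7 windows, all but CTSF, against 42.6% of all windows. Those 6 windows were 58.4% to 81.2% G and C, and that of CTSF 56.4%, against a median of 58.0% over all windows. The shares over all windows were not matched for this content. CCAAT was found in the CTSC and CTSL windows against 32.0% of all, and the ATF4-type element TGATGNAA and the AP-1 element TGANTCA were in none of the 7 against 3.16% and 6.59%. A match describes these letters and is no evidence of binding. No window was matched for CTSB, CTSS or LGMN.

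The first comparison asked what blocking lysosomal acidification did in rich medium. CTSC fell to 0.459 times its vehicle level, and no other member was called. CTSC had a log2 fold change of -1.12 (SE 0.18, 95% interval -1.51 to -0.73, edgeR quasi-likelihood adjusted p = 0.00202), and it was lower in 3 of 3 libraries than in any vehicle library. The call was made in each of the 12 fits that left out a library, with changes from -1.29 to -1.01. Of the 9 members tested, 1 was lower and 0 were higher, against 4.78% and 6.15% of all genes tested, and 2 had an unadjusted p under 0.05. DESeq2 called the same members as edgeR in all 5 comparisons. The median change of the members was 0.06 against 0.02 over all genes (log2).

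The other gene with an unadjusted p under 0.05 was CTSD, with a log2 fold change of 0.61 (SE 0.27, 95% interval 0.05 to 1.18, adjusted p = 0.154 by the edgeR test). It was called in some other fits. Without replicate 2 of the vehicle group the change was 0.98 with an adjusted p of 0.0162, and with no filter on low counts it was 0.61 with an adjusted p of 0.0375. CTSB (-0.02, 95% interval -0.45 to 0.41) and LGMN (-0.005, -0.47 to 0.46) had estimates near 0, with intervals that leave room for changes of up to about 0.47 in either direction. The intervals of CTSA (-0.44 to 0.57), CTSH (-0.20 to 0.65), CTSL (-0.19 to 0.65) and CTSZ (-0.65 to 0.20) also spanned 0, and that of CTSS (-0.67 to 1.57) was the widest.

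The second comparison asked the same question in depleted medium. CTSB and CTSC fell to 0.480 and 0.507 times their vehicle levels. CTSB changed by -1.06 (SE 0.21, 95% interval -1.5 to -0.62, edgeR adjusted p = 0.00437) and CTSC by -0.98 (SE 0.18, -1.37 to -0.59, adjusted p = 0.00353). Both calls were made in each of the 12 fits that left out a library. Against the background of 5.91% of genes lower and 5.5% higher, 2 of 9 members were lower and 0 were higher, and the median of the members was -0.25 against -0.03 over all genes.

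CTSZ and LGMN did not pass the test. They were lower in all 3 bafilomycin A1 libraries than in any vehicle library of depleted medium. Such separation was not counted over all genes and is not read as a result. CTSZ had a log2 fold change of -0.58 (SE 0.20, edgeR adjusted p = 0.077) and LGMN of -0.54 (SE 0.22, adjusted p = 0.129). In a fit of only the 6 libraries compared, both passed, with adjusted p-values of 0.0113 and 0.0475. CTSZ also passed with no filter on low counts (0.0281), without replicate 2 of rich medium with vehicle (0.0302) and without the 2 libraries that stood apart (0.0387). CTSA (0.03, 95% interval -0.48 to 0.54), CTSD (-0.16, -0.72 to 0.41), CTSH (-0.13, -0.55 to 0.30), CTSL (-0.24, -0.66 to 0.18) and CTSS (-0.25, -1.35 to 0.85) had intervals that spanned 0.

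The difference between these responses was tested as an interaction, where a negative value means a lower response in depleted than in rich medium. CTSB was the only member called, at -1.04 (SE 0.29, 95% interval -1.66 to -0.43, edgeR adjusted p = 0.0444). The call was made in 1 of the 12 fits that left out a library, the one without replicate 2 of rich medium with vehicle, and the adjusted p ran from 0.00821 to 0.118 over them. Without the 2 libraries that stood apart the difference was -0.94 with an adjusted p of 0.0791. Of all genes, 3.83% were called lower and 2.35% higher, against 1 and 0 of 9 members, and the median of the members was -0.47 against -0.05.

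CTSC had an interaction of 0.14 (95% interval -0.40 to 0.69, edgeR adjusted p = 0.793), so its fall with bafilomycin A1 was of similar estimated size in both media, within an interval that still allows a difference of 0.69. CTSD had an interaction of -0.77 (95% interval -1.57 to 0.03, adjusted p = 0.241), and -1.14 with an adjusted p of 0.0369 without replicate 2 of rich medium with vehicle. The values of LGMN (-0.53, -1.18 to 0.12), CTSL (-0.47, -1.06 to 0.12), CTSZ (-0.36, -0.96 to 0.25), CTSH (-0.35, -0.95 to 0.25), CTSA (-0.03, -0.75 to 0.68) and CTSS (-0.71, -2.27 to 0.86) were not called.

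The third comparison set depleted against rich medium in vehicle-treated cells. CTSC fell to 0.318 times its level in rich medium and CTSZ to 0.616 times. CTSC changed by -1.65 (SE 0.19, 95% interval -2.05 to -1.26, edgeR adjusted p = 3.96e-05), was called in each of the 12 fits without a library and also passed a test against a minimum fold of 1.5. CTSZ changed by -0.70 (SE 0.20, -1.13 to -0.27, adjusted p = 0.0162) and was called in 9 of those 12 fits. It was lost without replicate 2 of rich medium with vehicle (-0.44, adjusted p = 0.074), without replicate 1 or 3 of depleted medium with vehicle (adjusted p = 0.0559 and 0.068) and in a fit of only the 6 libraries compared (0.0509).

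Depletion changed many genes, 15.4% of those tested being lower and 15.5% higher, and 2 of 9 members lower and 0 higher is near that background. The median of the members was 0.10 against 0.05 over all genes. CTSD was at 0.64 (SE 0.27, 95% interval 0.08 to 1.21, edgeR adjusted p = 0.0791). It was called without replicate 2 of rich medium with vehicle, at 1.01 with an adjusted p of 0.00596, and with no filter on low counts, at 0.63 with an adjusted p of 0.0146. CTSB (-0.01, -0.44 to 0.42), LGMN (-0.35, -0.81 to 0.11), CTSA (0.10, -0.41 to 0.61), CTSH (0.17, -0.25 to 0.60), CTSL (0.13, -0.29 to 0.55) and CTSS (0.29, -0.83 to 1.42) had intervals that spanned 0.

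The fourth comparison set depleted against rich medium in the presence of bafilomycin A1. All 4 members called were lower, and none was higher. CTSC changed by -1.51 (SE 0.19, 95% interval -1.90 to -1.12, edgeR adjusted p = 7.78e-05), or to 0.351 times its level in rich medium. CTSZ changed by -1.06 (SE 0.20, -1.49 to -0.62, adjusted p = 0.00181), CTSB by -1.05 (SE 0.21, -1.49 to -0.62, adjusted p = 0.00199) and LGMN by -0.88 (SE 0.22, -1.35 to -0.42, adjusted p = 0.00883). In each of the 4 genes the 3 depleted libraries lay below the 3 rich ones, which was likewise not counted over all genes.

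The calls of CTSC, CTSZ and CTSB were made in each of the 12 fits that left out a library, and that of LGMN in 11 of them. LGMN was lost without replicate 2 of rich medium with bafilomycin A1 (-0.77, adjusted p = 0.0507). The members' 4 lower and 0 higher of 9 compare with 13.6% and 10.5% of all genes, and the medians were -0.41 and 0.01. CTSL was at -0.34 (95% interval -0.76 to 0.07, edgeR adjusted p = 0.224). CTSA (0.07, -0.44 to 0.57), CTSD (-0.13, -0.69 to 0.44), CTSH (-0.18, -0.60 to 0.25) and CTSS (-0.41, -1.51 to 0.68) were not called. The comparisons share groups of libraries, so their results for a gene are not independent of each other.

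**Figure D3:**
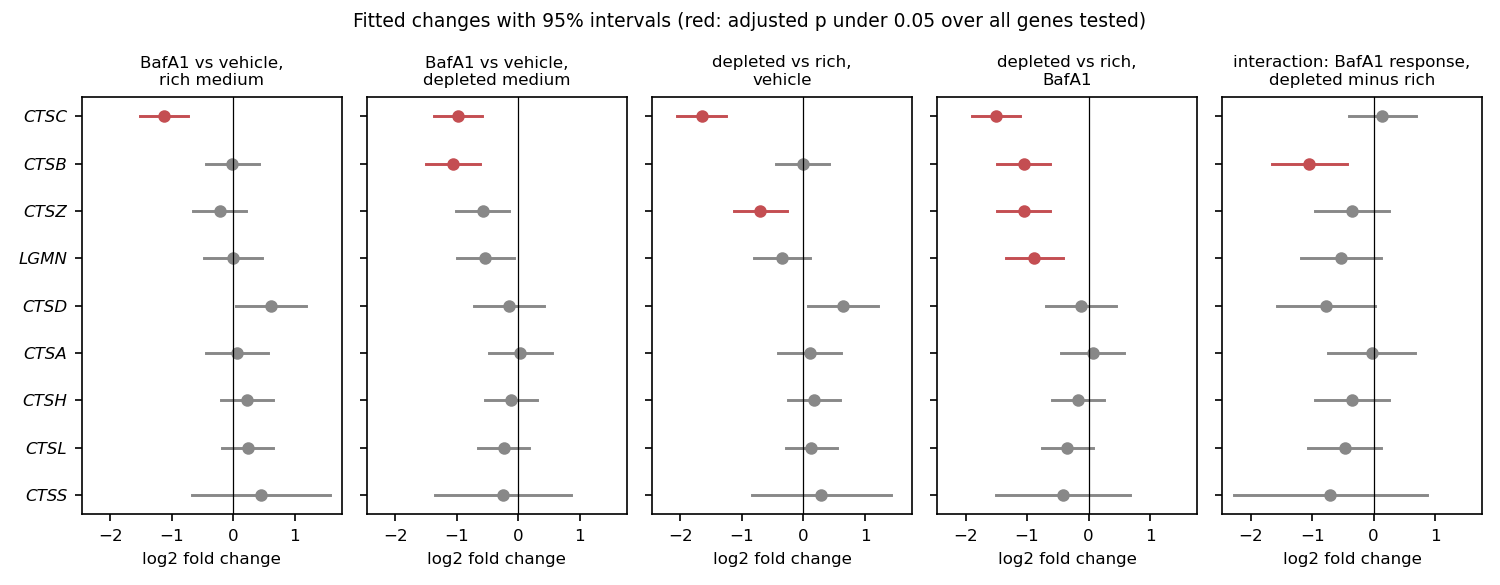
Fitted log2 fold changes (points) with 95% intervals (lines) of the 9 genes tested in the 4 comparisons and the interaction, in red where the adjusted p over all genes was under 0.05. CTSC is red in all 4 comparisons and near 0 in the interaction (0.14), and CTSB is near 0 in 2 comparisons, at -1.06 and -1.05 in the other 2 and at -1.04 in the interaction.

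The summed TPM of the 12 intestinal epithelial markers moved in the same order of groups as CTSC. It ran from 5160 to 8250 TPM in rich medium with vehicle, from 3296 to 4777 with bafilomycin A1, from 2872 to 2993 in depleted medium with vehicle and from 1543 to 2275 with bafilomycin A1. KRT8, at up to 4059 TPM, and KRT18, at up to 1904 TPM, made up much of this sum. Of 11 markers tested, 2 were higher and 2 lower with bafilomycin A1 in rich medium, and 0 and 4 in depleted medium. With depletion, 2 were higher and 3 lower in vehicle, and 0 and 8 under bafilomycin A1. In the same order, the shares of all genes were 6.15% and 4.78%, 5.5% and 5.91%, 15.5% and 15.4%, and 10.5% and 13.6%. KRT18 (-1.82, edgeR adjusted p = 3.4e-05) and KRT8 (-1.83, 8.18e-05) led the fall with depletion under bafilomycin A1. CDX2 and HNF4A, transcription factors of the intestinal epithelium, went the other way in rich medium with bafilomycin A1 (0.995 and 0.62, adjusted p = 0.0185 and 0.0308) and with depletion in vehicle (0.93 and 0.77, adjusted p = 0.0101 and 0.00336). The calls of CDX2 and HNF4A with bafilomycin A1 in rich medium were lost in 3 and 4 of the 12 fits without a library. Without the 2 libraries that stood apart neither was called there (edgeR adjusted p = 0.12 and 0.162). Their calls with depletion in vehicle were kept in all 12 fits. Summed leukocyte markers ran from 8.96 to 34.3 TPM and fibroblast markers from 11.0 to 90.1 TPM over all libraries. The part of these shifts in the members' results was not tested. In bulk RNA, fewer cells of a type and less RNA per cell cannot be told apart.

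Other genes of the lysosomal protease system were taken from lists. Of 15 other cathepsins and lysosomal proteases, 12 were tested, and 0 were called by edgeR or DESeq2 with bafilomycin A1 in rich medium, where 1 had an unadjusted p under 0.05 in edgeR. In depleted medium, where 5.91% of all genes were lower and 5.5% higher, bafilomycin A1 left 4 of the list lower and 0 higher. Among them were CTSO, a further cysteine cathepsin (-1.42, edgeR adjusted p = 0.0145), TINAGL1, a secreted relative of cathepsin B without protease activity (-1.03, 0.0153), and CPQ, a carboxypeptidase (-1.03, 0.0169). The list's median was -0.49 there against -0.03 over all genes. Leaving out a library gave 0 to 5 lower, and the calls of CTSO and TINAGL1 were each lost in 4 of the 12 fits.

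Depletion with vehicle left 3 of the 12 higher and 1 lower, against 15.5% and 15.4% of all genes. CTSO rose by 1.38 (adjusted p = 0.00729, edgeR), TPP1, a tripeptidyl peptidase, by 0.73 (0.0346) and CPQ by 0.75 (0.0364). Under bafilomycin A1, depletion left 0 higher and 3 lower, against 10.5% and 13.6% of all genes. The 3 included TINAGL1 (-1.53, 0.000663) and PRCP, a prolyl carboxypeptidase (-0.77, 0.00219). In the interaction TINAGL1 was the only member of the list called (-1.35, 0.0357), and that call was lost in 9 of the 12 fits that left out a library. In the interaction 5 of the 12 had an unadjusted p under 0.05, DESeq2 called 3 lower, and the list's median was -0.80 against -0.05 over all genes. A negative interaction median was not particular to proteases. The epithelial markers were at -0.60, and of the lists below the inhibitors were at -0.81 and the other acid hydrolases at -0.38. The genes for tagging and delivery were at -0.08. TPP1 and CPQ were each lost in 4 of the 12 fits, and CTSO, TINAGL1 and PRCP kept their depletion calls in all 12. Without the 2 libraries that stood apart, depletion with vehicle left 1 of the list higher and 3 lower. In that fit TPP1 and CPQ were not called (edgeR adjusted p = 0.129 and 0.0675).

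Of 16 cystatins and other protease inhibitors listed, not all of which act on the proteases described here, 8 were tested. With depletion in vehicle 3 fell and 0 rose, against 15.4% and 15.5% of all genes. The 3 were secreted cystatins, CST4 (-2.53, edgeR adjusted p = 0.000572), CST1 (-2.73, 0.00139) and CST3 (-1.33, 0.00377). Under bafilomycin A1 the same 3 were at -4.14 (4.5e-05), -3.62 (0.000419) and -2.22 (0.000187), and SERPINB6, a serine protease inhibitor, was the fourth gene lower (-0.65, 0.00685). Of all genes, 13.6% were lower and 10.5% higher with depletion under bafilomycin A1. The 3 cystatins kept both calls in all 12 fits without a library. The list's medians were -0.44 and -1.09 against 0.05 and 0.01 over all genes. With bafilomycin A1, 0 of the 8 were called by edgeR in either medium, with 0 in rich and 3 in depleted medium at an unadjusted p under 0.05, and DESeq2 called 0 and 1 lower.

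Of 17 genes that tag lysosomal enzymes and deliver them, 1 was higher and 0 lower with bafilomycin A1 in rich medium, 2 higher and 1 lower in depleted medium, 3 higher and 2 lower with depletion in vehicle, and 0 higher and 1 lower with depletion under bafilomycin A1. TMEM106B, a lysosomal membrane protein, rose by 0.99 with depletion in vehicle (edgeR adjusted p = 0.000327), and LRP1, an endocytic receptor, by 1.14 (0.0112). Over all genes, bafilomycin A1 left 6.15% higher and 4.78% lower in rich medium and 5.5% and 5.91% in depleted medium, so the list's counts there are not read as a result. Depletion left 15.5% of all genes higher and 15.4% lower with vehicle, and 10.5% and 13.6% under bafilomycin A1. AP1M1, a subunit of the clathrin adaptor that sorts receptors at the Golgi, fell with depletion. Its change was -0.64 with vehicle (edgeR adjusted p = 0.0162) and -0.86 under bafilomycin A1 (0.00383). The list's medians lay between -0.18 and 0.09. With bafilomycin A1, the fits without a library gave 0 to 3 higher and 0 to 1 lower in rich medium and 0 to 2 and 0 to 1 in depleted medium. In the same fits 2 to 6 were higher and 0 to 3 lower with depletion in vehicle, and TMEM106B and LRP1 kept these calls in all 12. Without the 2 libraries that stood apart LRP1 was not called (adjusted p = 0.0592, edgeR).

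Of the 3 partners of cathepsin A, NEU1 rose by 0.85 with bafilomycin A1 in rich medium (edgeR adjusted p = 0.0317). Of all genes, 6.15% were higher there. The NEU1 call was lost in 4 of the 12 fits without a library. Without the 2 libraries that stood apart it was also lost (edgeR adjusted p = 0.0956). No other call among these partners was made by edgeR in the 5 comparisons. Of the 4 MiT/TFE factors, TFEC rose by 2.62 with depletion in vehicle (0.00167), fell by 1.96 with bafilomycin A1 in depleted medium (0.0182) and had an interaction of -3.17 (0.0183). The last 2 of these calls were lost in 4 and 3 of the 12 fits without a library. MITF rose by 0.82 with depletion under bafilomycin A1 (0.00497). Of all genes, 15.5% were higher with depletion in vehicle and 10.5% with depletion under bafilomycin A1. With bafilomycin A1 in depleted medium 5.91% were lower, and in the interaction 3.83%. TFEB and TFE3 transcripts were not called in any comparison, and RNA levels do not report where these proteins are in the cell.

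Of 30 acid hydrolases that are not proteases, 2 were higher and 2 lower with bafilomycin A1 in rich medium, and 2 and 1 in depleted medium. Depletion left 4 higher and 4 lower with vehicle, and 0 and 6 under bafilomycin A1. Over all genes, bafilomycin A1 left 6.15% higher and 4.78% lower in rich medium and 5.5% and 5.91% in depleted medium. The shares for depletion were 15.5% and 15.4% with vehicle and 10.5% and 13.6% under bafilomycin A1. The list's counts with bafilomycin A1 and with depletion in vehicle are near those shares and are not read as a result. PPT1, a thioesterase, fell by 1.96 and 1.84 in the depletion comparisons (edgeR adjusted p = 4.52e-05 and 7.42e-05), and GLA, a galactosidase, was also lower in both (adjusted p = 0.000972 and 0.0198). In the same list IDUA, an iduronidase, rose by 1.65 with vehicle (0.00592), and LIPA, the acid lipase, rose by 0.79 with bafilomycin A1 in depleted medium (0.0234). The list's medians lay between -0.22 and 0.18 in these 4 comparisons. Its counts moved with single libraries, from 2 to 12 higher and 2 to 5 lower for depletion in vehicle. PPT1 kept its depletion calls in all 12 fits, as did GLA and IDUA with vehicle. The calls of GLA under bafilomycin A1 and of LIPA were each lost in 4 of the 12.

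**Figure D4:**
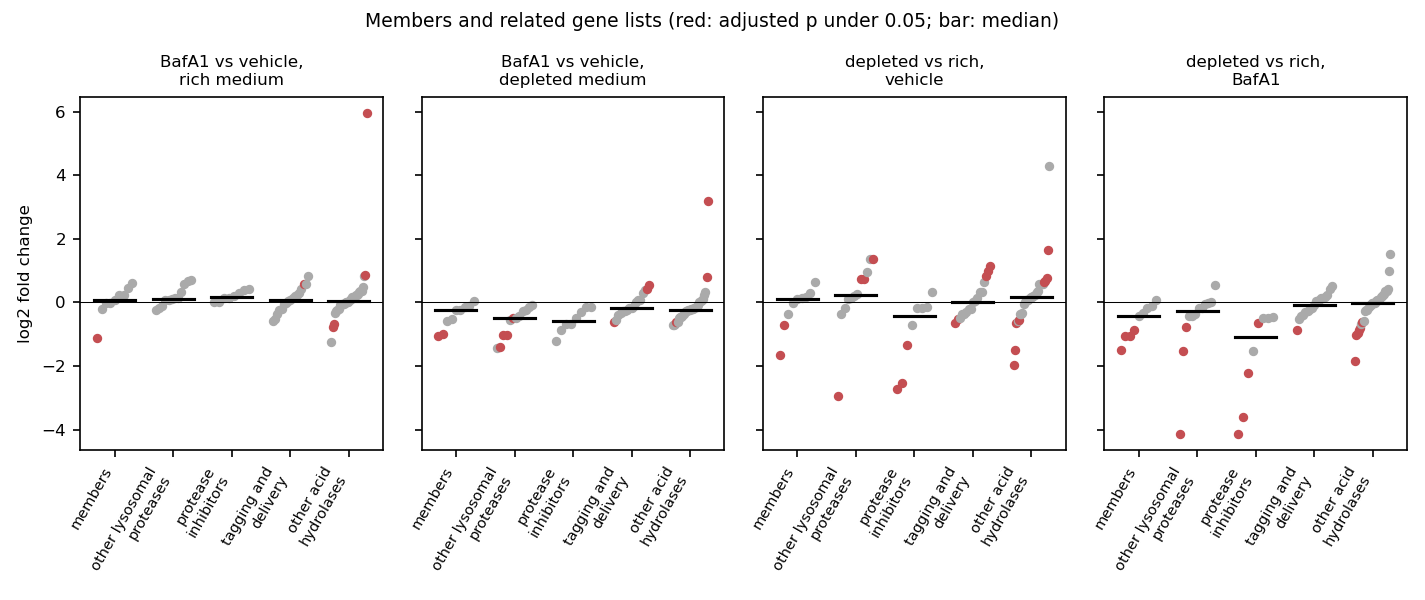
Log2 fold changes of the tested genes of 5 lists, the members among them, in the 4 comparisons, each point a gene in rank order within its list, red where the adjusted p over all genes was under 0.05, with a bar at the list's median. The lowest points are CTSE and the cystatins CST4 and CST1 in the depletion panels, and the highest red point is ACP5, a phosphatase with a mean of 0.2 CPM.

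For each member, the genes outside the list with the most similar profile were found by Pearson's r of log2 CPM over the 12 libraries, among 10835 genes averaging 5 CPM or more. CTSC was closest to VOPP1 (r = 0.988) and CTPS1 (0.986), CTSZ to TSPAN14 (0.988) and GPRC5B (0.985), and LGMN had COL18A1 (0.977) among its closest. CTSB was closest to POFUT1 (0.974) and LAMA5 (0.965). CTSD was closest to PRSS22 (0.952) and to GRN (0.948), which encodes the progranulin precursor of lysosomal granulins. CTSA was closest to TM9SF4 (0.947) and GLG1 (0.924), and CTSH to ABCB9 (0.939), a lysosomal peptide transporter, and CLDN4 (0.925). CTSL (IBA57, 0.811, and KDELR1, 0.783) and CTSS (PVR, 0.835, and TRAPPC14, 0.786) had weaker best matches. These values describe 12 libraries that fall into 4 groups and share their differences between groups, and no test was made of them.

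By the RefSeq annotation of GRCh38.p14, CTSC lies at chr11:88293592-88337736 (minus strand), CTSD at chr11:1752755-1763927 (minus), CTSZ at chr20:58995185-59007254 (minus), CTSA at chr20:45891335-45898820 (plus), LGMN at chr14:92703809-92748627 (minus), CTSH at chr15:78921058-78945046 (minus), CTSL at chr9:87726119-87731469 (plus) and CTSS at chr1:150730188-150765778 (minus). CTSL has close copies, of which the pseudogene CTSLP2 held up to 71 reads and the paralogue CTSV between 722 and 2890 reads, against 232 to 1182 reads for CTSL. How many reads these genes share was not measured.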

How the data were processed

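Total RNA depleted of ribosomal RNA was made into stranded libraries, per the labels' protocols. The authors deposited an estimated count and a TPM per gene and library, per the file headers, and a series-wide table of whole-number counts, per the file headers, used as an alternative. DRAGEN and GRCh38 are named in the submitters' processing notes. For the annotation and the strand setting: not given in the sources used here.

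Estimated counts were rounded, filtered with filterByExpr (minimum count 10, total 15), scaled by TMM and tested with edgeR 4.0.16 (R 4.3.3) by quasi-likelihood F tests in 1 fit of 12 libraries, with Benjamini-Hochberg adjustment over 18047 genes and calls at 0.05. SE values come from the fold change and the F statistic. The procedure was tested on simulated data. The shallowest library held 12969811 reads, so its counts are the least precise.

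The members and lists were chosen with earlier results of these data known. All members are named; from each list up to 3 called genes per comparison with the smallest adjusted p and a mean of at least 1 CPM may be named, and for each member the 2 most similar genes. CTSE and ACP5, below 1 CPM, and SERPINB6 lie outside this rule and were named after their values were seen. Some items are not reported here. The labels do not say whether replicates were separate cultures. The p-values therefore cover the spread between these libraries alone, and that spread may be technical. Alternatives were DESeq2 1.42.0 size factors and test, no filter, the replicate block, effective-length offsets, scaling without mitochondrial, ribosomal and small RNA genes, the series-wide table, fits of only the libraries compared, a minimum fold of 1.5, TPM, and leaving out each library. A fit without the 2 libraries that stood apart was chosen after seeing the data.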

Additional observations from a re-analysis of the deposited data

Results flagged for a closer look

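The response of CTSB to bafilomycin A1 differed between the media by -1.04 on the log2 scale (depleted minus rich medium, SE 0.29, edgeR adjusted p = 0.0444), which is a test of the difference itself. In rich medium the response was -0.02 (SE 0.20) and in depleted medium -1.06 (SE 0.21). All 3 depleted-medium libraries with bafilomycin A1 were lower than any of the other 9. The call was made in 1 of 12 fits that left out a library, and over these fits the difference ran from -1.29 to -0.88.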

How the results depend on the processing

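Over 45 gene and comparison pairs and 22 alternatives, 941 results kept their side of the threshold, 15 passed it newly and 25 fell short of it, and no call changed direction. Among the 941, 42 values that were not called changed sign.

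With bafilomycin A1 in rich medium, 2 members were called with no filter on low counts (CTSC and CTSD), 0 with a minimum fold of 1.5 and 1 to 2 without a library. In depleted medium 4 were called in a fit of only the libraries compared and 0 with the minimum fold. For depletion with vehicle, 1 was called with the minimum fold, 1 in a fit of only the libraries compared and 1 to 2 without a library, and for depletion under bafilomycin A1, 1 with the minimum fold. Without the 2 libraries that stood apart, 1, 3, 2 and 4 members were called in these 4 comparisons. For the interaction, 0 were called with the minimum fold, 0 without the 2 libraries that stood apart and 0 to 2 without a library. On the TPM scale 3 of the 9 genes kept the order of their 4 group means. The cause was not tested. Over all genes the interaction had 424 higher and 692 lower calls, against 874 and 1196 in DESeq2, 546 and 1246 with no filter and 742 and 1227 with the replicate block, and 126 to 766 and 259 to 1078 without a library. Bafilomycin A1 in rich medium had 1109 and 862, against 1594 and 1377 in DESeq2 and 653 and 357 without the 2 libraries. In depleted medium the calls numbered 992 and 1066, against 1735 and 1709 without the 2 libraries, and for depletion under bafilomycin A1 1893 and 2459, against 2912 and 3093.

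The replicate numbers share only a number in the labels. Of 18 same-numbered pairs between groups, 6 had deviations correlated above 0.1 (from -0.081 to 0.294), although 10 of 12 libraries correlated best with their own number. For 5 members replicate 2 was the highest of its group in all 4 groups, and it was the highest in 31 of 36 gene and group pairs. The replicate number thus went with shared differences between libraries that the main fit does not model. With the replicate block, 2 members were called for bafilomycin A1 in rich medium (CTSC and CTSD). CTSD was higher there, at 0.67 (adjusted p = 0.0115 by edgeR). In depleted medium 4 were called (CTSB, CTSC, CTSZ and LGMN). For depletion in vehicle 3 were called (CTSC, CTSZ and CTSD, the latter higher at 0.68, adjusted p = 0.00429 by edgeR). In the interaction 2 were called (CTSB and CTSD). Of the 12 other lysosomal proteases tested, 5 were lower in the interaction with the block. Depth limits CTSS, at 11 to 94 reads, and CTSF, at 0.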
